A study of Mus musculus with 6 samples.

Results

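The 5 genes described here encode parts of the endothelin system of the embryonic mouse heart: *Edn1* for the ligand endothelin 1, *Ednra* and *Ednrb* for its A and B receptors, and *Ece1* and *Ece2* for the endothelin-converting enzymes. They are 5 of 54356 genes with a row in the transcript files, and all 5 were among the 16048 genes with enough reads to be tested. The genes were listed by name for their place in the pathway, but the list was chosen by someone who knew how they differed between the groups, ligand against receptor. The values of these 5 genes in that contrast are therefore a description, given without a p-value.

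The hearts came from FlncgKO embryos and from littermate controls at embryonic day 9.5 (E9.5), in strain C57BL/6, with 3 libraries in each group. FlncgKO embryos lacked exons 9 to 13 of *Flnc*, the gene of the actin crosslinker filamin C. The authors made the global knockout by crossing floxed *Flnc* mice with mice carrying Sox2Cre. This Cre driver acts in the epiblast and so deletes the gene throughout the embryo. Whether Cre acted in the sequenced embryos or they inherited the deleted allele is not stated. The alleles carried by the controls, whether they held Sox2Cre and how many hearts went into a library are not given in the sources used here. The labels say whole heart, while the methods name hearts or isolated ventricles. *Flnc* was at 127, 111 and 240.0 CPM in FlncgKO replicates 1, 2 and 3, against 844, 623 and 746 CPM in control replicates 1, 2 and 3, so each FlncgKO library was lower than every control. CPM is the usual count unit scaled to the size of each library, here with TMM factors that correct for RNA composition, and the libraries held 19208859 to 23123255 estimated counts. *Flnc* differed by -2.21 on the log2 scale, but edgeR's quasi-likelihood test, the main test used below, did not call it (adjusted p = 0.0656). It passed in 2 of 14 alternative settings, DESeq2 and the fit without FlncgKO replicate 3. A gene that edgeR did not call may therefore still differ between the groups. Heart muscle markers were abundant in every library, since 10 cardiomyocyte genes summed to 32548 to 37787 CPM in FlncgKO and 35290 to 40090 CPM in control hearts. The Y-linked genes *Ddx3y*, *Uty*, *Eif2s3y* and *Kdm5d* summed to 80.7, 3.88 and 4.28 CPM in FlncgKO replicates 1, 2 and 3 and to 117 to 140 CPM in the controls, so the groups were not balanced for sex. The FlncgKO libraries also differed from each other in megakaryocyte and platelet markers, which were lowest in replicate 3.

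Endothelins are made as long precursors. Furin-type proteases release an inactive intermediate, big endothelin, and the converting enzymes, which are zinc metalloproteases of the membrane, trim it to the active peptide. The peptide acts close to where it is secreted, through A and B receptors that couple to G proteins of the Gq family, phospholipase C and calcium. Blood vessel endothelium is the best known source of endothelin 1. In the mouse embryo, endothelin 1 from the epithelium of the pharyngeal arches also signals through the A receptor to neural crest cells, which build the lower jaw and the great vessels, while the B receptor with endothelin 3 serves the neural crest of gut and skin.

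The coding stretches of the active peptides are shown to compare *Edn1* with the other ligand genes. Each stretch has 63 bases for 21 codons and lies in exon 2 of its gene (GENCODE M21, GRCm38, plus strand), at chr13:42303649-42303711 for *Edn1*, chr4:120161951-120162013 for *Edn2* and chr2:174761749-174761811 for *Edn3*. Capitals mark the codons of the 4 cysteines that form the loops of the peptide.
Edn1: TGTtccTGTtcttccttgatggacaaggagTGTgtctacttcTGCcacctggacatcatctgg
Edn2: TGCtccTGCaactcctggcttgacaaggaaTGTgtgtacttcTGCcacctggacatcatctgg
Edn3: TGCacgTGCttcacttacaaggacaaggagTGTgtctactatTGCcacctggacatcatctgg
*Edn1* shares 53 of the 63 bases with *Edn2* and 50 with *Edn3*, and the codons name the same residue at 18 and 15 of 21 positions. The last 21 bases, which lead up to the cut of the converting enzymes, are the same in all 3 genes.

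*Edn1* was about 5 times higher in FlncgKO hearts than in controls. It lies on chromosome 13 from 42301476 to 42307990 and has a single transcript in the annotation, Edn1-201. It was at 40.0, 50.6 and 40.2 CPM in FlncgKO replicates 1, 2 and 3, against 7.55, 9.99 and 6.76 CPM in control replicates 1, 2 and 3. The groups were far apart, the lowest FlncgKO library lying well above the highest control. Replicate 2 was the highest library in both groups. In estimated counts these are 894, 1146 and 771 in FlncgKO, against 165, 207 and 140 in control. The means were 43.6 ± 6.05 CPM in FlncgKO and 8.10 ± 1.68 CPM in control hearts (SD, n = 3 each), which is 5.38-fold, or 2.43 on the log2 scale with a standard error of 0.17. By log2 fold change *Edn1* was number 113 of the 16048 genes tested and number 24 of the 170 that edgeR's quasi-likelihood test called higher at an adjusted p under 0.05. In whole hearts, more cells that make a transcript and more of it per cell cannot be told apart.

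The log2 fold change of *Edn1* lay between 2.29 and 2.60 under the 14 alternative settings tried, 6 of which left out a library. *Edn1* was called higher in 12 of them. It was not called without control replicate 1, at 2.38, nor with the Y-linked level as a covariate, at 2.29 and with no gene called. Without control replicate 2 it was the only gene called higher. *Edn1* was picked with this contrast known, so these calls are a description and do not count as a test of it.

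The A receptor gene differed in the other direction and by much less. *Ednra* (chromosome 8, 77663031 to 77724464, minus strand) was at 64.9, 63.1 and 53.6 CPM in FlncgKO replicates 1, 2 and 3, against 83.5, 78.8 and 78.7 CPM in control replicates 1, 2 and 3. Every FlncgKO library was lower than every control library, and FlncgKO replicate 3 was the lowest. The means were 60.5 ± 6.09 CPM in FlncgKO and 80.3 ± 2.75 CPM in control hearts (SD, n = 3 each), a log2 difference of -0.41 with a standard error of 0.080, or 1.33-fold lower. The coding transcript Ednra-201 held 94.0% to 94.9% of its estimated counts over the 6 libraries, and the rest were given to Ednra-202, which keeps an intron. The antisense gene *4933431K23Rik* spans *Ednra* and had 30 to 66 counts in FlncgKO and 58 to 75 counts in control hearts, far fewer than the 1027 to 1451 and 1629 to 1826 of *Ednra* itself.

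The B receptor gene was lower on average, with overlap between the groups. *Ednrb* (chromosome 14, 103814625 to 103844402, minus strand) was at 31.9, 47.6 and 34.5 CPM in FlncgKO replicates 1, 2 and 3, against 50.4, 65.6 and 46.6 CPM in control replicates 1, 2 and 3. FlncgKO replicate 2 reached above control replicate 3, and replicate 2 was again the highest in both groups. The means were 38.0 ± 8.45 CPM in FlncgKO and 54.2 ± 10.1 CPM in control hearts (SD, n = 3 each), a log2 difference of -0.51 with a standard error of 0.20.

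The estimated use of *Ednrb* transcripts varied more within the control group than between groups. The authors' TPM values, which are scaled by transcript length, put Ednrb-201 at 8.61, 11.6 and 7.31 TPM in FlncgKO replicates 1, 2 and 3, against 9.98, 18.2 and 15.4 TPM in control replicates 1, 2 and 3. Ednrb-202 was at 4.85, 9.42 and 7.67 TPM in FlncgKO, against 12.99, 9.75 and 3.98 TPM in control. Control replicate 1 had most from Ednrb-202 and control replicate 3 most from Ednrb-201, so the share of Ednrb-202 in the gene's counts was 31.0% to 45.4% in FlncgKO and 17.9% to 51.2% in control hearts. Ednrb-203 stayed at 8.61% to 12.0% in FlncgKO and 7.97% to 9.88% in control hearts. All 3 transcripts are annotated as coding and overlap along the gene, so their split rests on salmon's estimate.

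**Figure D1:**
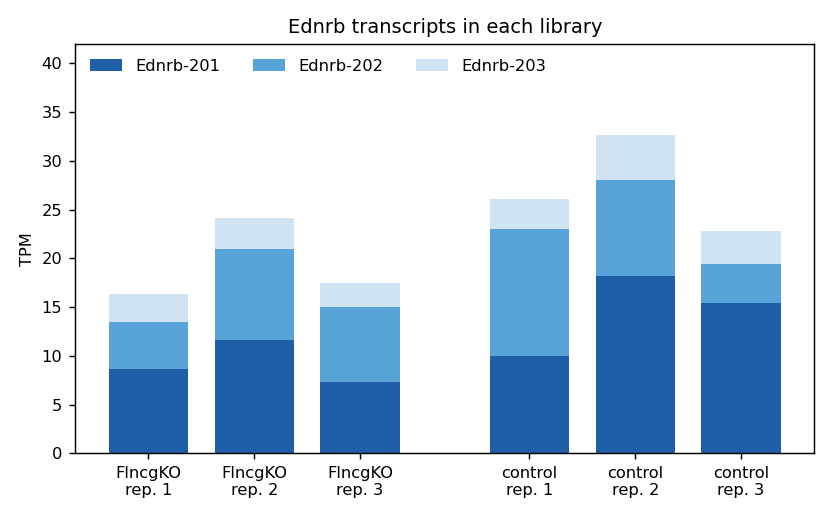
TPM of the 3 annotated *Ednrb* transcripts (vertical axis, stacked bars) in each FlncgKO and control library. The order of Ednrb-201 and Ednrb-202 differs between control replicates 1 and 3, and the whole bar is 16.3 to 24.1 TPM in FlncgKO and 22.8 to 32.6 TPM in control hearts.

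The converting enzyme genes gave overlapping groups. *Ece1* (chromosome 4, 137862237 to 137965229) was at 242, 286 and 302 CPM in FlncgKO replicates 1, 2 and 3, against 282, 329 and 267 CPM in control replicates 1, 2 and 3. The highest and lowest libraries of both groups interleave, with means of 277 ± 31.5 CPM in FlncgKO and 292 ± 32.4 CPM in control hearts (SD, n = 3 each) and a log2 fold change of -0.079 (standard error 0.11). Its long transcript Ece1-201, of 20 exons, held 97.7% to 98.3% of the counts. *Ece2* (chromosome 16, 20629828 to 20646485), an enzyme best known from neural tissue, had only 15, 35 and 16 counts in FlncgKO and 14, 15 and 23 in control hearts. Its log2 fold change of 0.31 (standard error 0.40) had an error larger than itself, and with offsets for transcript length it was -0.42. The gene *Gm49333* overlaps *Ece2* on the same strand and had 11, 0 and 13 counts in FlncgKO and 0, 8 and 3 in control hearts, so at this depth the reads of these overlapping genes cannot be shared out firmly.

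**Figure D2:**
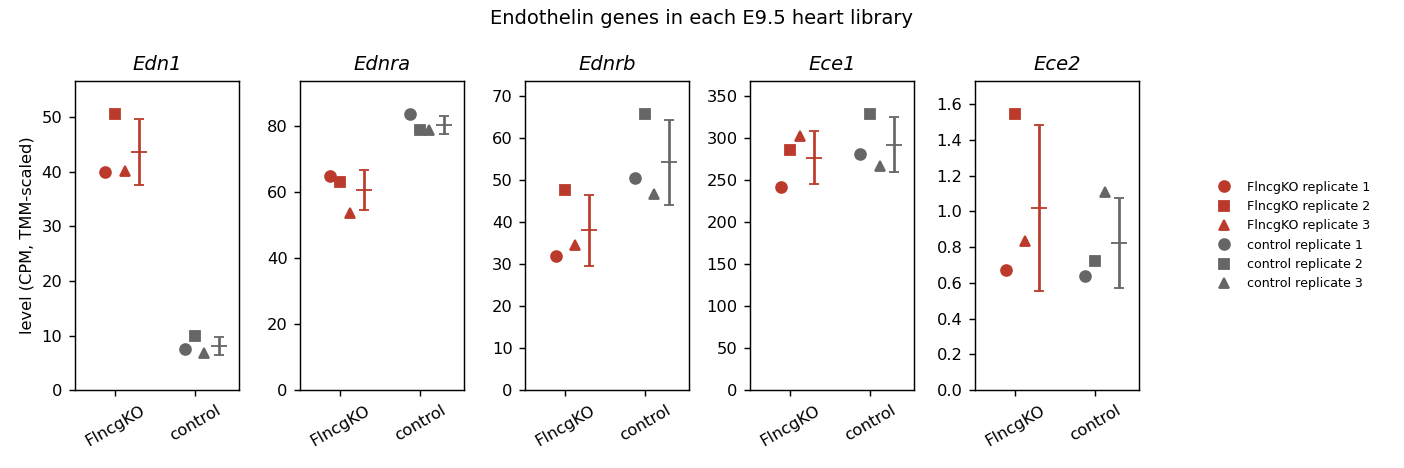
Level of the 5 endothelin genes in CPM (vertical axes from 0, a separate scale per gene) in each library, with a marker shape for each replicate and the mean and SD of 3 libraries at the side. *Edn1* is at 40.0 to 50.6 CPM in FlncgKO and 6.76 to 9.99 CPM in control hearts, *Ednra* is lower in each FlncgKO library, and the other 3 genes overlap.

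Of the 5 genes, edgeR called 1 higher (1.06% of all genes tested were called higher) and 0 lower (0.249% of all genes). DESeq2, the authors' tool, called *Edn1* higher and *Ednra* and *Ednrb* lower, where it called 6.17% of all genes higher and 2.29% lower. Over the 14 alternative settings, *Ednra* was called lower in 6 and *Ednrb* in 2. FlncgKO and control libraries did not overlap for *Edn1* and *Ednra*, as for 29.7% of all genes tested. Since the genes were picked with this contrast known, these counts are read for nothing further.

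Levels of different genes were compared as TPM, summed over transcripts of at least 1000 bases. Shorter transcripts were left out because Ece1-203, of 172 bases, had 28.4 to 52.0 TPM from 12.4 to 23.3 estimated counts. In FlncgKO hearts the order from high to low was *Ece1*, *Edn1*, *Ednra*, *Ednrb* and *Ece2*. In control hearts it was *Ece1*, *Ednra*, *Ednrb*, *Edn1* and *Ece2*. *Ece1* was at 66.9 to 82.1 TPM in FlncgKO and 72.7 to 89.7 TPM in control hearts. *Edn1* was at 35.9, 45.9 and 35.7 TPM in FlncgKO replicates 1, 2 and 3, against 6.95, 8.82 and 5.93 TPM in control replicates 1, 2 and 3. *Ednra* was at 26.3 to 32.1 TPM in FlncgKO and 38.2 to 42.1 TPM in control hearts, and *Ednrb* at 16.3 to 24.1 TPM and 22.8 to 32.6 TPM in the same groups. *Ece2* was at 0.329 to 0.737 TPM in FlncgKO and 0.229 to 0.427 TPM in control hearts. Within each group no neighbours in the order overlapped over its 3 libraries. The ligand transcript thus stood above both receptor transcripts in each FlncgKO library and below both in each control library.

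**Figure D3:**
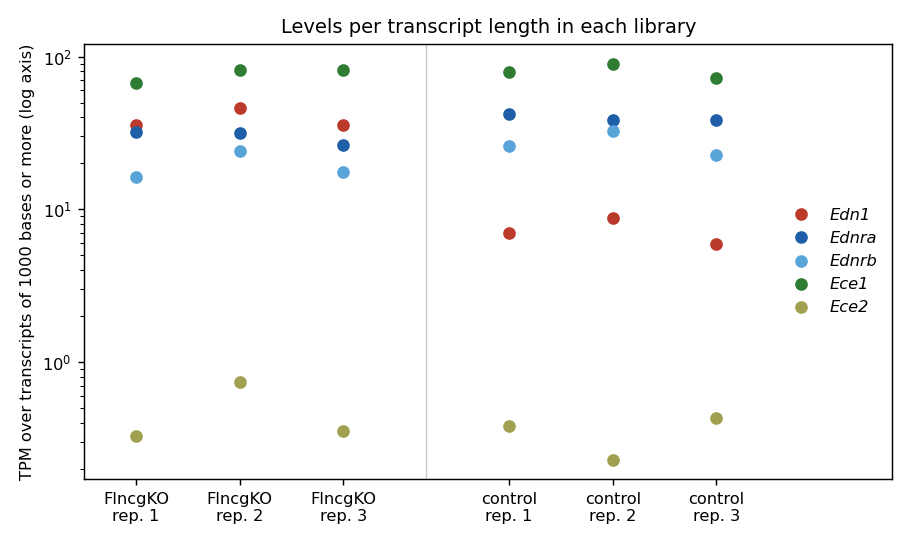
TPM of the 5 genes, summed over transcripts of at least 1000 bases, in each library on a log axis. *Edn1* lies above *Ednra* and *Ednrb* in all 3 FlncgKO libraries and below them in all 3 control libraries, and *Ece1* is the highest of the 5 in all 6.

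Set against its receptors within a library, the ligand shifted more than it did alone, which follows from its higher and their lower levels. The genes were picked with these directions known, so the ratios are a description. *Edn1* TPM over the sum of *Ednra* and *Ednrb* TPM was 0.741, 0.821 and 0.815 in FlncgKO replicates 1, 2 and 3, against 0.102, 0.124 and 0.0972 in control replicates 1, 2 and 3. The means were 0.792 ± 0.045 in FlncgKO and 0.108 ± 0.0143 in control hearts (SD, n = 3 each), a ratio of 7.36. Over *Ednrb* alone, *Edn1* was 2.20, 1.90 and 2.04 in FlncgKO and 0.266, 0.270 and 0.260 in control hearts, nearly the same in the 3 libraries of each group. The proportion of the 2 receptors overlapped between the groups, with *Ednra* over *Ednrb* at 1.60 ± 0.33 in FlncgKO and 1.49 ± 0.27 in control hearts (SD, n = 3 each). *Ece1* over *Edn1* was 1.98 ± 0.28 in FlncgKO and 11.3 ± 1.06 in control hearts (SD, n = 3 each).

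Endothelial and endocardial markers had a higher summed level on average in FlncgKO hearts, with overlap of the groups. The 14 markers, which include the adhesion molecules *Pecam1* and *Cdh5* and the receptors *Kdr* and *Tie1*, were all tested and summed to 1185, 1454 and 1199 CPM in FlncgKO replicates 1, 2 and 3, against 1012, 1194 and 1091 CPM in control replicates 1, 2 and 3. In both groups replicate 2 was the highest in this sum as it was in *Edn1*. *Sox17*, a transcription factor of arterial endothelium, and *Emcn*, a sialomucin of the endothelial surface, rose by 1.96 and 1.24 on the log2 scale with standard errors of 0.15 and 0.16 (edgeR, adjusted p = 0.0128 and 0.0353). edgeR called 2 of the 14 higher and 0 lower, where it called 1.06% of all genes higher and 0.249% lower. Before adjustment 7 were higher and 2 lower at p under 0.05, where 13.3% and 8.84% of all genes stood. The 2 lower ones, *Tek* and *Npr3*, differed by -0.40 and -0.58 on the log2 scale (edgeR, adjusted p = 0.109 and 0.101) and were called lower by DESeq2 (adjusted p = 0.0132 and 0.00094). *Sox17* lost its call without control replicate 1 or 2, and *Emcn* without any 1 of the controls, FlncgKO replicate 1 or FlncgKO replicate 2. Both lost it with the Y-linked covariate. Per 1000 CPM of the endothelial sum, *Edn1* was at 33.7, 34.8 and 33.5 CPM in FlncgKO, against 7.46, 8.37 and 6.20 CPM in control hearts. The difference was 4.63-fold on this scale, against 5.38-fold in CPM, and the groups again did not overlap. The sum joins markers that moved in different directions. Which cells held the *Edn1* transcript, and the part of endothelial cell number in its level, were not tested.

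**Figure D4:**
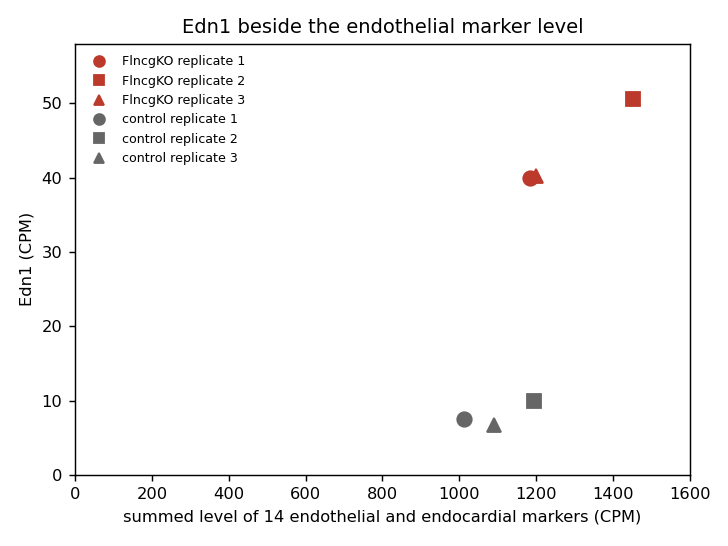
*Edn1* in CPM (vertical axis) against the summed CPM of 14 endothelial and endocardial markers (horizontal axis), with 1 point per library. The marker sum is 1185 to 1454 CPM in FlncgKO and 1012 to 1194 CPM in control hearts, and FlncgKO replicates 1 and 3 have 40.0 and 40.2 CPM of *Edn1* where control replicate 2, with a like marker sum, has 9.99 CPM.

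Other cell types moved with the groups to different degrees, and their part in the endothelin values was not tested. All 13 megakaryocyte and platelet markers had values in FlncgKO libraries above those in controls, with a summed level of 1240, 770 and 250 CPM in FlncgKO replicates 1, 2 and 3, against 99.5, 77.6 and 121 CPM in control replicates 1, 2 and 3. Over the same FlncgKO libraries *Edn1* was at 40.0, 50.6 and 40.2 CPM, with replicate 3, lowest in platelet markers, at the level of replicate 1. None of the 13 was called by edgeR, which called 1.06% of all genes higher. All 13 were higher at an unadjusted p under 0.05, where 13.3% of all genes stood. The groups did not overlap for all 13, against 29.7% of all genes tested. Some of the 13, such as *Ppbp*, *Gp9* and *Treml1*, had fewer than 10 counts in every control. They reached the minimum for testing only through the FlncgKO libraries, where they are high. Erythroid markers summed to 6951 to 10539 CPM in FlncgKO and 2942 to 7741 CPM in control hearts, and *Tfrc*, the transferrin receptor, was the only 1 of 10 that edgeR called (0.44 higher on the log2 scale, adjusted p = 0.0310). *Tfrc* lost this call without control replicate 1 or 2 (edgeR, adjusted p = 0.197 and 0.191), without FlncgKO replicate 1 or 2 (0.0607 and 0.0527) and with the Y-linked covariate (0.220). The 10 epithelial markers summed to 250, 329 and 542 CPM in FlncgKO replicates 1, 2 and 3, against 191, 129 and 301 CPM in control replicates 1, 2 and 3, almost all of it from the keratins *Krt8* and *Krt18*. Mesenchyme and smooth muscle markers overlapped at 3649 to 4184 CPM in FlncgKO and 3942 to 4088 CPM in control hearts, and epicardial markers overlapped at 69.8 to 88.3 CPM and 72.3 to 101 CPM. Macrophage markers summed to 4.24 to 25.6 CPM in FlncgKO and 3.57 to 12.4 CPM in control hearts. Mitochondrial transcripts took 2.01% to 2.58% of counts in FlncgKO and 3.08% to 3.96% in control hearts, without overlap.

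Defining markers of arch neural crest and pharyngeal endoderm were at or near 0 in these hearts. The neural crest regulator *Foxd3* had no count in any library, and *Sox10* was at 0.132 to 0.179 CPM in FlncgKO and 0.242 to 1.19 CPM in control hearts. The 6 markers of pharyngeal endoderm summed to 0.805 to 1.15 CPM in FlncgKO and 0.724 to 1.46 CPM in control hearts, with *Foxe1* at 0 in every library.

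The other ligand genes were barely detected. *Edn2* (chromosome 4, 120161206 to 120167360) had 2, 4 and 6 counts in FlncgKO replicates 1, 2 and 3, against 2, 1 and 5 in control replicates 1, 2 and 3. *Edn3* (chromosome 2, 174760619 to 174784042) had 3, 11 and 8 counts in FlncgKO and 2 in each control. Neither reached the minimum for testing, and at this depth no difference between the groups could be shown. Reads of *Edn1*, with 771 to 1146 counts in FlncgKO and 140 to 207 in control hearts, outnumbered both of them in every library.

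Of 46 further genes of the pathway, 37 were tested with the fit over all genes. At an adjusted p under 0.05, edgeR called 1 higher and 0 lower, where it called 1.06% of all genes higher and 0.249% lower. Before adjustment 6 were higher and 7 lower at p under 0.05, where 13.3% and 8.84% of all genes stood. DESeq2 called 4 higher and 3 lower, where it called 6.17% of all genes higher and 2.29% lower. Without FlncgKO replicate 3, edgeR called 4 higher and 5 lower, in a fit that called 6.05% of all genes higher and 1.73% lower. The list was drawn up from knowledge of the pathway with earlier results of these data known.

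The proteases that make or break down endothelins were listed with *Edn2* and *Edn3*, and 3 of these 9 genes were tested. Neither edgeR nor DESeq2 called any, and *Furin* was lower at an unadjusted p under 0.05, where 8.84% of all genes stood. *Furin*, which cuts the precursor, was at 182, 183 and 182 CPM in FlncgKO and 202, 204 and 191 CPM in control hearts (log2 fold change -0.13, adjusted p = 0.168 from edgeR). *Kel*, a red cell protease that can activate big endothelin 3, differed by 0.72 on the log2 scale with a standard error of 0.44 (edgeR, adjusted p = 0.404), and *Mme*, neprilysin, which degrades endothelin 1, had -0.066 (adjusted p = 0.665). The median of the 3 was -0.066, against 0.0087 over all genes tested.

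The 19 genes of receptor signalling were all tested and had a median log2 fold change of 0.19. However, edgeR called 0 of them, where it called 1.06% of all genes higher and 0.249% lower. Before adjustment 5 were higher and 2 were lower at p under 0.05, where 13.3% and 8.84% of all genes stood. Those with the smallest p were *Gna13*, *Plcb4*, *Gna11* and *Rgs4*, which differed by 0.39, 0.21, -0.19 and -0.66 on the log2 scale (edgeR, adjusted p = 0.103, 0.143, 0.146 and 0.151). *Gna13* encodes a G protein alpha subunit and was at 137, 153 and 111 CPM in FlncgKO, against 105, 99.9 and 101 CPM in control hearts. *Plcb4* encodes a phospholipase C and *Gna11* a Gq-family subunit that A receptors couple to. *Rgs4*, a brake on Gq signalling, was at 5.05, 3.09 and 4.95 CPM in FlncgKO, against 8.23, 5.94 and 6.52 CPM in control hearts. *Gnaq*, which encodes another Gq-family subunit, was at 73.5 to 79.3 CPM in FlncgKO and 73.6 to 80.1 CPM in control hearts. Without FlncgKO replicate 3, *Gna13* passed as higher and *Gna11* as lower, and with DESeq2 *Gna13* passed. *Prkca* and *Arrb2*, named after their values were seen, also passed as higher in both of those fits, and *Arrb1* passed only without control replicate 3.

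**Figure D5:**
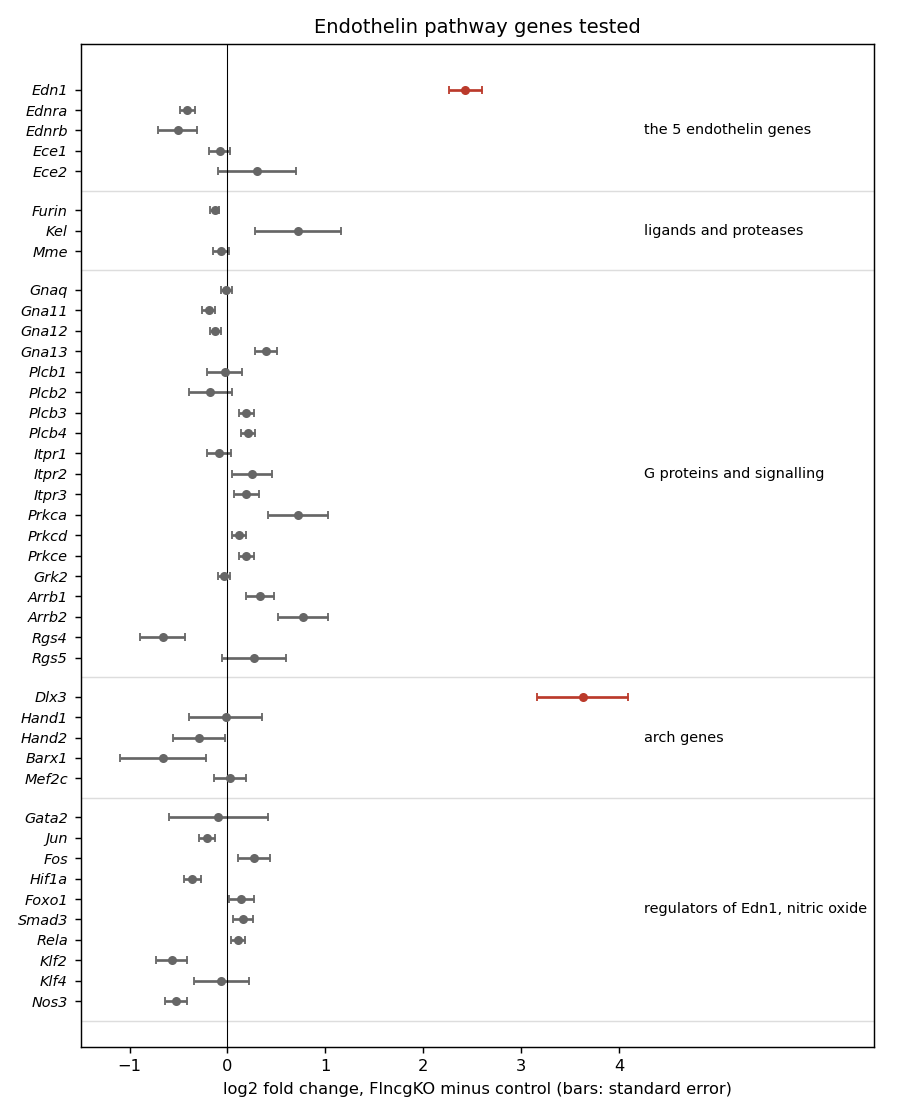
Log2 fold change of FlncgKO over control (horizontal axis) with its standard error for the 5 endothelin genes and the 37 further pathway genes tested, with genes called higher by edgeR in red. *Edn1* at 2.43 and *Dlx3* at 3.63 are the called genes, and the other genes lie between -0.66 and 0.77.

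Of 8 arch genes whose expression depends on A receptor signalling in mouse embryos, 5 were tested, and *Dlx3*, a homeobox transcription factor, rose. It was at 1.39, 4.10 and 2.92 CPM in FlncgKO replicates 1, 2 and 3, against 0.183, 0.241 and 0.242 CPM in control replicates 1, 2 and 3, from 31, 93 and 56 counts against 4, 5 and 5. The difference was 3.63 on the log2 scale with a standard error of 0.47 (edgeR, adjusted p = 0.0324), with no overlap of the groups. Every control had fewer than 10 counts. *Dlx3* thus reached the minimum for testing only through the FlncgKO libraries, where it is high, and its call is read as a description. It lost the call without control replicates 1, 2 or 3 (adjusted p = 0.197, 0.191 and 0.0616), without FlncgKO replicate 2 (0.0647) and with the Y-linked covariate (0.184, at 2.40 on the log2 scale). *Dlx3* is also expressed in surface ectoderm. The 10 ectodermal and epithelial markers summed to 250, 329 and 542 CPM in FlncgKO replicates 1, 2 and 3. In control replicates 1, 2 and 3 they summed to 191, 129 and 301 CPM. This sum overlapped between the groups and came almost all from *Krt8* and *Krt18*. *Trp63*, another of the 10, had 1, 21 and 11 counts in FlncgKO and 0, 1 and 0 in control hearts, too few to test. Like *Dlx3*, it was highest in FlncgKO replicate 2. Among the others, *Krt5* was highest in control replicate 1, with 9 counts, and the rest were highest in FlncgKO replicate 3. The part of these markers in the *Dlx3* values was not tested.

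The remaining arch genes did not pass edgeR's test. *Hand2* was at 57.3, 54.3 and 101 CPM in FlncgKO, against 94.5, 80.4 and 85.0 CPM in control hearts (log2 fold change -0.29, adjusted p = 0.577 from edgeR), and it passed as lower without FlncgKO replicate 3. *Mef2c*, which also serves the second heart field and heart muscle, differed by 0.025 on the log2 scale, *Hand1* by -0.018 and *Barx1* by -0.66, with standard errors of 0.16, 0.37 and 0.44. *Dlx5*, *Dlx6* and *Gsc* were too low to test, with *Dlx5* at 0.0447, 1.19 and 0.574 CPM in FlncgKO and 0 to 0.193 CPM in control hearts. *Dlx6* had 0, 20 and 4 counts in FlncgKO replicates 1, 2 and 3, against 1, 0 and 3 in control replicates 1, 2 and 3. Like *Dlx3*, both *Dlx5* and *Dlx6* were highest in FlncgKO replicate 2, while *Gsc* had at most 1 count in any library. *Hand1*, *Hand2* and *Mef2c* are expressed in the heart itself as well as in the arches.

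Of 10 genes that act on *Edn1* transcription or make nitric oxide, edgeR called 0, where it called 1.06% of all genes higher and 0.249% lower. Their median log2 fold change was -0.079. Before adjustment 4 were lower at p under 0.05, where 8.84% of all genes stood. The 4 genes with the smallest p all had lower means in FlncgKO hearts. *Nos3*, the endothelial nitric oxide synthase whose product opposes endothelin in vessels, was at 40.2, 40.8 and 46.5 CPM in FlncgKO, against 57.0, 71.0 and 55.3 CPM in control hearts (-0.52 on the log2 scale with a standard error of 0.11, edgeR adjusted p = 0.0653). *Klf2*, an endothelial factor induced by flow that lowers *Edn1* in cultured endothelium, was at 9.03, 9.35 and 13.2 CPM in FlncgKO, against 16.6, 15.5 and 14.8 CPM in control hearts (log2 fold change -0.57, adjusted p = 0.0976). *Hif1a*, the oxygen-regulated subunit of a factor that can induce *Edn1*, was at 299, 299 and 362 CPM in FlncgKO, against 430, 422 and 380 CPM in control hearts (log2 fold change -0.36, adjusted p = 0.0840). For these 3 of the 10 genes the groups did not overlap, a share near the 29.7% of all genes tested. All 3 passed with DESeq2, without a filter on low counts and without FlncgKO replicate 3. *Jun*, a subunit of AP-1, had -0.21 (adjusted p = 0.207).

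Binding sites for GATA factors, AP-1 and hypoxia-inducible factor are known from the *Edn1* promoter, so the window from 250 bases before to 50 after its annotated start (RefSeq, GRCm38.p6, chr13:42301226-42301525, plus strand) was searched on both strands. The letters of a GATA-factor site, AGATAA, matched on the minus strand at bases 9 to 14 after the start. Those of the hypoxia response element, ACGTG, matched on the minus strand at bases 22 to 26. A variant of the AP-1 site, TGACTAA, matched on the plus strand at bases 37 to 43, while the AP-1 consensus, TGANTCA, had no match, and no match overlapped another. No match lay in the 250 bases before the annotated start. All positions are counted from that start, and whether it is the one used in these hearts was not measured. The positions therefore do not show that the matches lie outside the working promoter or differ from the known sites. The last 30 bases of the window, chr13:42301496-42301525, show the hypoxia and AP-1 matches in capitals.
Edn1 start region: gCACGTtgcctgtgggTGACTAAtcacaca
Of 32851 promoter windows of that length, 11.2% held the GATA-factor letters, 19.6% the hypoxia response letters, 2.35% the AP-1 variant and 7.81% the AP-1 consensus. No window of *Ednra* or *Ednrb* held any of these motifs, and the hypoxia response letters were found in the window of *Ece2* and in 1 of 4 windows of *Ece1*. A match is a run of letters and was not measured as a bound site here.

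The genes whose level followed *Edn1* most closely over the 6 libraries, by Pearson's r of log2 CPM among 14333 other genes of at least 1 CPM, were *Spocd1* (0.998), *Aasdh* (0.998), *Sh3tc1* (0.997), *Mdm2* (0.996) and *Trim47* (0.994). *Spocd1* was at 4.96, 6.04 and 5.06 CPM in FlncgKO, against 2.29, 2.61 and 2.13 CPM in control hearts, and *Trim47* at 17.1, 18.9 and 16.6 CPM against 10.6, 11.0 and 10.5 CPM. Like *Edn1*, these genes were highest in replicate 2 of each group. *Mdm2* differed by only 0.14 on the log2 scale (edgeR, adjusted p = 0.142), and r does not measure the size of a difference.

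For *Ednra* the closest genes were *Cask* (0.994), *Shisa2* (0.994), *Cacna1d* (0.989), *3830432H09Rik* (0.988) and *Pcdhac2* (0.988). *Shisa2* was at 36.1, 33.1 and 25.6 CPM in FlncgKO, against 60.7, 54.3 and 49.6 CPM in control hearts, with FlncgKO replicate 3 lowest as in *Ednra*. *Cacna1d*, which encodes a calcium channel subunit, was at 64.4, 62.6 and 53.3 CPM in FlncgKO, against 87.5, 86.7 and 87.4 CPM in control hearts. With 6 libraries in 2 groups, r takes in the step between the groups, and it is given as a description.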

How the data were processed

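Hearts of 3 FlncgKO and 3 control embryo samples were sequenced from polyadenylated RNA (stranded library kit). The authors quantified reads with salmon (version not given in the sources used here) against GENCODE M22 transcripts (GRCm38.p6) and deposited estimated counts, TPM values and effective lengths for 140658 transcripts per library. The submitters' notes name DESeq2 1.22.2 for testing. The 5 genes and all gene lists were chosen with earlier results of these data known.

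From these files, transcripts were joined to genes by identifier through GENCODE M21 (GRCm38), which left out 0.370% of transcripts holding 0.108% to 0.131% of estimated counts. The counts were added up by gene and rounded to whole numbers. Genes passing filterByExpr (minimum 10 counts) were tested with edgeR 4.0.16 (TMM, robust quasi-likelihood, R 4.3.3), FlncgKO against control, adjusted by Benjamini-Hochberg (threshold 0.05). Scripts were tested on simulated data. Named genes were the 5, list genes past the threshold or else the 4 with the smallest p per pathway list, *Edn2*, *Edn3*, called markers and the 5 genes most like *Edn1* and *Ednra*. Other list genes were named after their values were seen. TPM was summed over transcripts of at least 1000 bases, a minimum set after seeing the data. Alternatives were RLE scaling, total counts, 2 other filters, length offsets, DESeq2 1.42.0, a replicate block, a Y-linked covariate and leaving out each library. Nothing says that libraries came from separate litters, so p-values measure the spread between these samples. The summed level of the neural crest markers is not reported here.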

Additional observations from a re-analysis of the deposited data

How the results depend on the processing

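Over all genes, 170 higher and 40 lower calls became 392 and 162 without a filter on low counts, 63 and 13 with length offsets, 990 and 367 with DESeq2 and 0 and 0 with the Y-linked covariate (901 and 385 at an unadjusted p under 0.05). With 10 counts in every library 62 genes were lower. Leaving out 1 library gave 1 to 989 higher and 0 to 283 lower genes. Of the other pathway genes, 0 were higher with 10 counts in every library, where *Dlx3* was not tested, and 0 with the Y-linked covariate. DESeq2 called 4 higher and 3 lower, 3 were lower without a filter, and leaving out 1 library gave 0 to 4 higher and 0 to 5 lower. With the Y-linked covariate the log2 fold changes of *Ednra*, *Ednrb*, *Ece1* and *Ece2* were -0.29, -0.81, -0.31 and -0.44, and with length offsets that of *Ece2* was -0.42. Leaving out 1 library gave 2.31 to 2.60 for *Edn1*, -0.47 to -0.33 for *Ednra*, -0.71 to -0.35 for *Ednrb*, -0.15 to 0.011 for *Ece1* and -0.14 to 0.57 for *Ece2*. *Mef2c* changed sign with total counts only (-0.0051) and without FlncgKO replicate 1 (-0.13) or 2 (-0.0032), in a range of -0.13 to 0.19 over the libraries left out. The causes of these changes were not tested. The labels do not say whether equal replicate numbers mark a litter. Deviations of same-numbered libraries correlated at r = 0.060, 0.647 and 0.673 for replicates 1, 2 and 3, and the crossed pairs of replicates 2 and 3 at -0.62 and -0.69. Since replicate 1 showed little pairing and control replicate 1 correlated best with FlncgKO replicate 2, the libraries were treated as unpaired, and a pairing of some of them is possible. A replicate block gave 512 higher and 120 lower genes, with *Edn1* at 2.43, *Ednra*, *Ednrb*, *Tek* and *Npr3* called lower and 1 pathway gene called. Low counts limit *Ece2*, *Edn2*, *Edn3* and *Dlx3*.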
